A study of Homo sapiens with 9 samples.

Results

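The genes of glycolysis, glucose transport and pyruvate handling were examined in human U87 glioblastoma cells and in 2 irradiated lines made from them. The 38 genes were chosen by name, as glucose and lactate transporters, the enzymes from hexokinase to lactate dehydrogenase, the PFKFB and PDK regulators, and enzymes of the pentose phosphate and glycogen routes. These genes and the lists set beside them were chosen with earlier results of these data known. Their counts beside all tested genes are therefore descriptive. All 38 are among the 60606 genes of the deposited table, and 36 passed the filter for testing. U87 is an established glioblastoma cell line; its wild-type cells were grown in medium with serum and were not irradiated. GSCs are stem-like cells derived from U87 and exposed to repeated cycles of radiation, grown in serum-free medium with EGF and bFGF. Diff cells were obtained from the radioresistant GSCs in serum and selected as clonal communities. RNA of each line was sequenced in 3 libraries, and the labels do not say whether these came from separate cultures, so the p-values measure the spread between these libraries only. All samples go back to 1 cell line. GSCs differ from U87 in both radiation and culture medium, and Diff cells differ from GSCs in both medium and clonal selection. Diff cells and U87 were both grown in serum. They differ in radiation, the earlier growth as GSCs in serum-free medium, and clonal selection. Within each comparison the parts of these factors cannot be told apart.

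Glycolysis breaks glucose down to pyruvate in the cytosol. Pyruvate is then either reduced to lactate, which leaves the cell through monocarboxylate transporters, or oxidised in mitochondria by the pyruvate dehydrogenase complex. Several steps are carried out by isozymes encoded by different genes, and many of these genes are known targets of the hypoxia-inducible factors. Glioblastomas are known for a high use of glucose and a high output of lactate.

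Values are TPM, the share of a gene in a library's transcripts after division by gene length, scaled to a total of 1000000, so that levels of different genes can be set beside each other. Differences are log2 fold changes on the log2(TPM + 1) scale with their standard error, and the test is limma with p-values adjusted by the Benjamini-Hochberg method over 22909 genes with a mean TPM over 1. A gene passed the test at an adjusted p under 0.05, and a change over 2-fold is one that also exceeded 1 on the log2 scale. TPM give no read counts, so the counting error behind each value is unknown. Mitochondrial transcripts took 25.9% to 28.8% of TPM in U87, 27.9% to 30.8% in GSCs and 30.7% to 31.8% in Diff cells. The labels name no sequencing date or batch. Of 4 stem cell markers, PROM1 and SOX2 were under 1 TPM in every library. FABP7 was higher than U87 in both lines, by 1.77 on the log2 scale in GSCs and 1.16 in Diff cells, and NES was lower, with changes of -0.53 in GSCs and -1.23 in Diff cells. Of 6 immune and endothelial markers, PTPRC, AIF1, CD3E and CDH5 stayed under 1 TPM in every library. The endothelial markers VWF and PECAM1 were higher in GSCs than in U87, by 3.03 and 0.97, and VWF also in Diff cells, by 0.85. VWF measured 0.581, 0.708 and 0.293 TPM in U87, 11, 12 and 11.2 in GSCs and 1.88, 1.64 and 1.71 in Diff cells. Among 4 glial markers, AQP4 and S100B were under the filter and OLIG2 did not pass against U87. GFAP, at a mean of 2.29 TPM in U87, changed by -0.78 in Diff cells and -0.86 in GSCs. Among 4 neuronal markers, RBFOX3 and SYP were under the filter and TUBB3 did not pass against U87. MAP2 was higher than U87 in Diff cells, by 1.35, and did not pass in GSCs, at 0.05. The part of these markers in the results was not tested.

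Most of the 36 tested genes were lower in both irradiated lines than in U87. In Diff cells 25 of the 36 tested genes were lower than in U87 and 5 were higher, against a background of 20.5% of all tested genes lower and 18.9% higher. In GSCs 23 of 36 were lower and 5 higher, where 23.3% of all tested genes were lower and 25.3% higher. A fall over 2-fold was found for 18 genes in Diff cells (6.36% of all tested genes) and 14 in GSCs (7.53%), and a rise over 2-fold for 1 gene in Diff cells (5.92%) and 2 in GSCs (9.52%). The median log2 fold change of the 36 genes was -1.03 in Diff cells and -0.70 in GSCs, beside -0.04 and 0.02 for all tested genes. In bulk RNA a lower level in every cell and fewer cells with a high level cannot be told apart.

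In both lines at once, 21 of the 36 genes were lower than in U87 and 3 were higher, PFKM, PFKFB2 and PDK2, where 13.8% of all tested genes were lower in both and 13.8% higher. SLC2A3 and TALDO1 passed the test in opposite directions. HK1, LDHB, PDHB and PGD passed in no comparison. Both comparisons use the same U87 libraries.

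**Figure D1:**
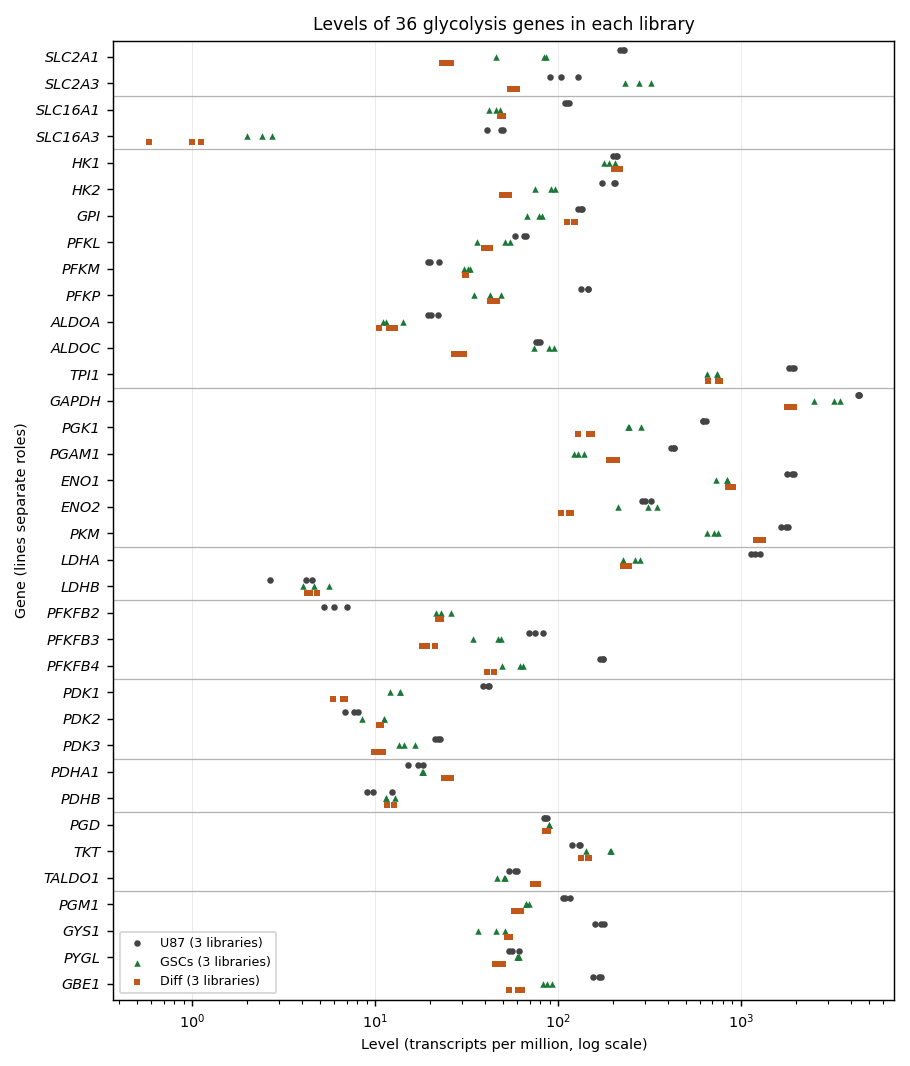
Level of each of the 36 tested genes in TPM on a log axis, with 1 point for each of the 9 libraries; circles are U87, triangles GSCs and squares Diff cells. The U87 points lie to the right of both irradiated lines for most glycolytic enzymes, while for PFKFB2 they lie to the left, at 5.24 to 7 TPM.

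Of the 2 glucose transporters, SLC2A1 fell in both lines and SLC2A3 moved in opposite directions. SLC2A1 (chr1:42925375-42959176, minus strand) encodes GLUT1, the carrier for basal glucose uptake in many tissues. It measured 231, 226 and 217 TPM in U87, 84, 85.6 and 45.8 in GSCs and 23.3, 24.2 and 26 in Diff cells. The 3 lines did not overlap, and GSCs replicate 3 was well below the other two GSCs libraries. The log2 fold change from U87 was -3.15 ± 0.21 in Diff cells (adjusted p = 5.7e-06) and -1.69 ± 0.21 in GSCs (adjusted p = 0.000174). Without GSCs replicate 3 the value in GSCs was -1.40, with an adjusted p of 1.48e-06.

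SLC2A3 (chr12:7919230-7936275, minus strand) encodes GLUT3, a high-affinity carrier best known from neurons. It measured 104, 128 and 90.1 TPM in U87, 323, 277 and 232 in GSCs and 55.1, 57.1 and 59.5 in Diff cells. GSCs were the highest and Diff cells the lowest, with no overlap between lines. It rose by 1.36 ± 0.14 on the log2 scale in GSCs (adjusted p = 6.92e-05) and changed by -0.88 ± 0.14 in Diff cells (adjusted p = 0.00123). Diff cells differed from GSCs by -2.24 ± 0.14 (adjusted p = 1.04e-05), which was a fall over 2-fold as in 5.36% of all tested genes. Processed pseudogenes of SLC2A3 held 2.27% to 11.2% of its TPM, and reads could be split between them and the gene.

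The share of SLC2A3 in the summed TPM of both transporters was 32.2 ± 3.56% in U87 (SD, n = 3), 79.8 ± 3.59% in GSCs and 70.1 ± 0.381% in Diff cells. The sum itself was 332 ± 23.6 TPM in U87 and 349 ± 65.4 in GSCs, which overlap, and 81.7 ± 3.58 in Diff cells, below both. On the log2 scale the sum in GSCs differed from U87 by 0.06 (2-sided exact permutation test, p = 0.8, n = 3 against 3).

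The first reaction, the phosphorylation of glucose, is carried out by hexokinases 1 and 2. HK1 did not pass the test in any comparison and measured 211, 201 and 207 TPM in U87, 178, 205 and 190.1 in GSCs and 204, 216 and 218 in Diff cells. The interval of its log2 fold change was -0.09 to 0.18 in Diff cells and -0.25 to 0.02 in GSCs. HK2 (chr2:74833981-74893359, plus strand), the form that many tumours add to HK1, measured 202, 204 and 175 TPM in U87, 91.6, 96 and 75.2 in GSCs and 49.4, 53.8 and 49.9 in Diff cells. It changed by -1.90 ± 0.10 in Diff cells (adjusted p = 1.51e-06) and -1.14 ± 0.10 in GSCs (adjusted p = 2.02e-05), and the lines did not overlap. HK2 was 48.4 ± 2.35% of the summed hexokinase TPM in U87, 31.4 ± 2.85% in GSCs and 19.4 ± 0.65% in Diff cells.

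GPI, which turns glucose phosphate into fructose phosphate, was lower in GSCs alone. It measured 136, 128 and 134 TPM in U87, 78.8, 81.8 and 67.4 in GSCs and 112, 123 and 124 in Diff cells, with a change of -0.80 ± 0.08 in GSCs (adjusted p = 4.3e-05) and of -0.15 ± 0.08 in Diff cells (adjusted p = 0.171). Diff cells and GSCs themselves differed by 0.65 ± 0.08 (adjusted p = 0.000345).

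Phosphofructokinase commits the sugar to glycolysis and has 3 genes. PFKP, the platelet form (chr10:3066333-3137712, plus strand), measured 147, 134 and 145 TPM in U87, 42.8, 48.6 and 34.9 in GSCs and 42.4, 46.2 and 44.6 in Diff cells. Both irradiated lines lay at about the same level, far below U87, with changes of -1.66 ± 0.11 in Diff cells (adjusted p = 5.43e-06) and -1.74 ± 0.11 in GSCs (adjusted p = 2.69e-06). The liver form PFKL changed by -0.62 ± 0.14 in Diff cells (adjusted p = 0.00731) and -0.44 ± 0.14 in GSCs (adjusted p = 0.0287), the GSCs call missing the threshold in 3 of 19 alternatives. The muscle form PFKM moved the other way and measured 22.5, 20.04 and 19.6 TPM in U87, 32.4, 32.9 and 30.8 in GSCs and 31, 31.3 and 31.3 in Diff cells. Its changes were 0.57 ± 0.06 in Diff cells (adjusted p = 0.000147) and 0.61 ± 0.06 in GSCs (adjusted p = 7.42e-05). The share of PFKM in the 3 genes was 9.13 ± 0.558% in U87, 26.7 ± 3.21% in GSCs and 26.8 ± 0.662% in Diff cells, and their sum was 227 ± 12.2, 121 ± 17.9 and 117 ± 3.34 TPM.

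Aldolase splits the sugar in the next step. ALDOC, the brain form, was lower in Diff cells alone and measured 75.9, 79.4 and 77.7 TPM in U87, 95.6, 89.1 and 74.5 in GSCs and 27.1, 28.6 and 30.7 in Diff cells. The change was -1.40 ± 0.09 in Diff cells (adjusted p = 5.07e-06). In GSCs it was 0.14 ± 0.09 (adjusted p = 0.221), and without GSCs replicate 3 it was 0.25 with an adjusted p of 0.0112. Diff cells differed from GSCs by -1.55 ± 0.09 (adjusted p = 6.17e-06). ALDOA measured only 19.5, 20.3 and 22 TPM in U87, 14.2, 11.5 and 11.1 in GSCs and 12.9, 11.9 and 10.5 in Diff cells, with changes of -0.76 ± 0.11 in Diff cells (adjusted p = 0.000624) and -0.71 ± 0.11 in GSCs (adjusted p = 0.000746). In GENCODE 29, 93.8% of the coding bases of ALDOA are shared with another gene on the same strand, ENSG00000285043, listed at 4.2 to 6.91 TPM, so the level of ALDOA and its ratio to ALDOC are uncertain. TPI1, which interconverts both products of aldolase, measured 1946, 1839.7 and 1895 TPM in U87, 740.1, 738 and 652 in GSCs and 663, 748 and 769 in Diff cells and changed by -1.38 ± 0.08 in Diff cells (adjusted p = 2.04e-06) and -1.42 ± 0.08 in GSCs (adjusted p = 1.14e-06).

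**Figure D2:**
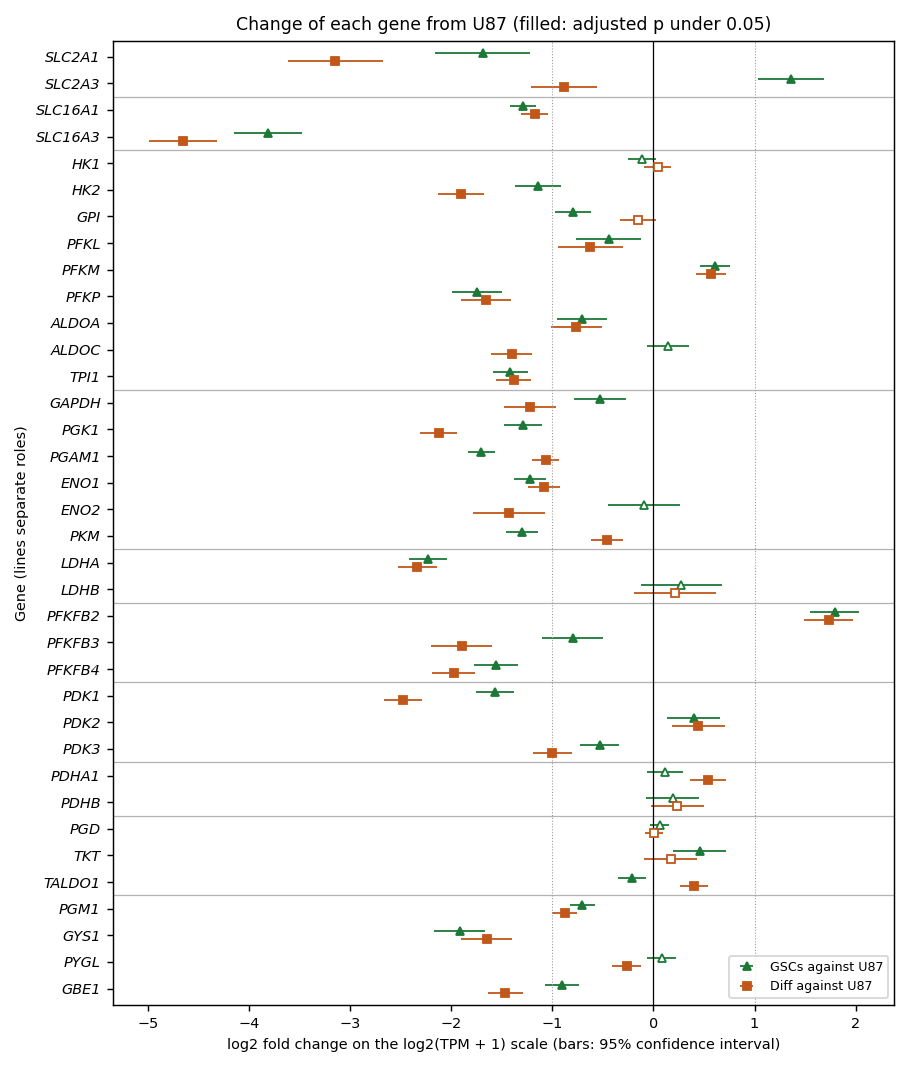
Log2 fold change of each tested gene from U87 on the log2(TPM + 1) scale, with triangles for GSCs, squares for Diff cells, bars for the 95% confidence interval and filled symbols for an adjusted p under 0.05. Most symbols lie left of 0, down to -4.65 for SLC16A3, and SLC2A3 and TALDO1 have their filled symbols on opposite sides of 0.

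Among the 6 genes of the second stage, which yields ATP, all 6 were lower in Diff cells and 5 in GSCs (20.5% and 23.3% of all tested genes). GAPDH, the most abundant of the genes examined and often used as a loading control, measured 4419, 4407 and 4355 TPM in U87, 3466, 3214 and 2518 in GSCs and 1785, 1929.5 and 1951 in Diff cells. It changed by -1.22 ± 0.11 in Diff cells (adjusted p = 4.16e-05) and by -0.53 ± 0.11 in GSCs (adjusted p = 0.00406). The fall in GSCs missed the threshold under quantile normalization, at -0.34 with an adjusted p of 0.0885.

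PGK1 (chrX:77910739-78129296, plus strand), the first enzyme of the pathway to make ATP, measured 641, 622 and 621 TPM in U87, 284, 245 and 242 in GSCs and 129, 148 and 154 in Diff cells. The lines stood apart in the order U87, GSCs, Diff cells. The changes were -2.13 ± 0.08 in Diff cells (adjusted p = 3.03e-07) and -1.29 ± 0.08 in GSCs (adjusted p = 2.98e-06), and Diff cells differed from GSCs by -0.83 ± 0.08 (adjusted p = 0.000109).

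PGAM1 and PKM showed the other order among the irradiated lines, with GSCs the lowest. PGAM1, a mutase, measured 429, 414 and 429.7 TPM in U87, 128, 139 and 123 in GSCs and 211, 191 and 204 in Diff cells, and Diff cells were above GSCs by 0.63 ± 0.06 (adjusted p = 8.52e-05). PKM, the pyruvate kinase whose splice forms the table does not separate, measured 1769.9, 1656 and 1817 TPM in U87, 716, 753 and 655 in GSCs and 1210.5, 1321 and 1276 in Diff cells. Its change was -0.46 ± 0.07 in Diff cells (adjusted p = 0.000819) and -1.30 ± 0.07 in GSCs (adjusted p = 1.15e-06), and Diff cells were above GSCs by 0.84 ± 0.07 (adjusted p = 4.17e-05).

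The enolases ENO1 and ENO2 differed in pattern. ENO1, the widely used form, was lower in both lines, at 1909, 1788 and 1943 TPM in U87, 844, 845 and 735 in GSCs and 855, 909.6 and 904 in Diff cells. ENO2, the form known from neurons, measured 299, 322 and 289.9 TPM in U87, 348, 310.4 and 214 in GSCs and 104, 115 and 117 in Diff cells. It changed by -1.43 ± 0.16 in Diff cells (adjusted p = 0.000116) and by -0.09 ± 0.16 in GSCs (adjusted p = 0.664), where replicate 3 was the lowest library and the value without it was 0.11 with an adjusted p of 0.246. The share of ENO2 was 13.9 ± 1.18% in U87, 26.2 ± 3.37% in GSCs and 11.2 ± 0.311% in Diff cells.

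LDHA, SLC16A1 and SLC16A3, which make and export lactate, fell over 2-fold in both lines. LDHA (chr11:18394388-18408425, plus strand), the lactate dehydrogenase subunit that favours lactate formation, measured 1195, 1137 and 1278 TPM in U87, 264, 226 and 279.9 in GSCs and 242, 228 and 243 in Diff cells. GSCs and Diff cells overlapped each other, and the level in U87 was 4.69-fold that in GSCs and 5.07-fold that in Diff cells in mean TPM. The log2 fold changes were -2.33 ± 0.08 in Diff cells (adjusted p = 2.03e-07) and -2.23 ± 0.08 in GSCs (adjusted p = 1.58e-07). The difference between both irradiated lines had an interval of -0.29 to 0.09. LDHB stayed at 4.55, 4.2 and 2.67 TPM in U87, 4.04, 4.65 and 5.64 in GSCs and 4.83, 4.26 and 4.39 in Diff cells and passed no test, but 93.5% of its coding bases are shared with ENSG00000285854 on the same strand, so its level is uncertain. LDHA made up 99.7 ± 0.0955% of the summed lactate dehydrogenase TPM in U87, 98.2 ± 0.282% in GSCs and 98.1 ± 0.0956% in Diff cells.

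SLC16A3 (chr17:82228397-82261129, plus strand) encodes MCT4, the lactate exporter of glycolytic cells, and had the largest change among the 36 genes in both lines. It measured 48.6, 41.2 and 50.1 TPM in U87, 2.42, 2.73 and 2 in GSCs and 1.12, 1.01 and 0.582 in Diff cells. The level in U87 was 19.6-fold that in GSCs and 51.7-fold that in Diff cells in mean TPM, and the lines did not overlap. On the log2(TPM + 1) scale, which shrinks changes of low values, the changes were -3.82 ± 0.15 in GSCs (adjusted p = 1.96e-07) and -4.65 ± 0.15 in Diff cells (adjusted p = 1.12e-07). SLC16A1, which encodes MCT1 and carries lactate in both directions, measured 115, 112 and 109.7 TPM in U87, 45.8, 41.9 and 48.2 in GSCs and 49.9, 48.9 and 48.6 in Diff cells. It changed by -1.17 ± 0.06 in Diff cells (adjusted p = 1.13e-06) and -1.29 ± 0.06 in GSCs (adjusted p = 4.35e-07). SLC16A3 was 29.3 ± 2.27% of the pair in U87, 5.05 ± 1.07% in GSCs and 1.8 ± 0.539% in Diff cells.

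The PFKFB enzymes make and remove the sugar bisphosphate that activates phosphofructokinase, and their genes moved in opposite directions. PFKFB2 (chr1:207034366-207081024, plus strand), the form known from heart, was the gene with the largest rise and measured 6, 7 and 5.24 TPM in U87, 21.5, 23 and 25.9 in GSCs and 22.1, 22 and 23.1 in Diff cells. Both irradiated lines overlapped each other and stood above U87, by 1.73 ± 0.11 in Diff cells (adjusted p = 3.73e-06) and 1.79 ± 0.11 in GSCs (adjusted p = 1.98e-06). PFKFB4 measured 176, 177 and 169 TPM in U87, 62.5, 64.3 and 49.6 in GSCs and 44.7, 41 and 44.9 in Diff cells and changed by -1.98 ± 0.09 in Diff cells and -1.56 ± 0.09 in GSCs (adjusted p = 9.56e-07 and 2.34e-06). PFKFB3, the form with the strongest kinase activity, measured 75.1, 69.7 and 82.8 TPM in U87, 47.1, 49.1 and 34.5 in GSCs and 21.4, 18.2 and 19.3 in Diff cells. Its changes were -1.90 ± 0.13 in Diff cells (adjusted p = 8.46e-06) and -0.80 ± 0.13 in GSCs (adjusted p = 0.00108). PFKFB2 held 2.38 ± 0.361% of the 3 genes' TPM in U87, 18.9 ± 4% in GSCs and 26.2 ± 1.04% in Diff cells.

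**Figure D3:**
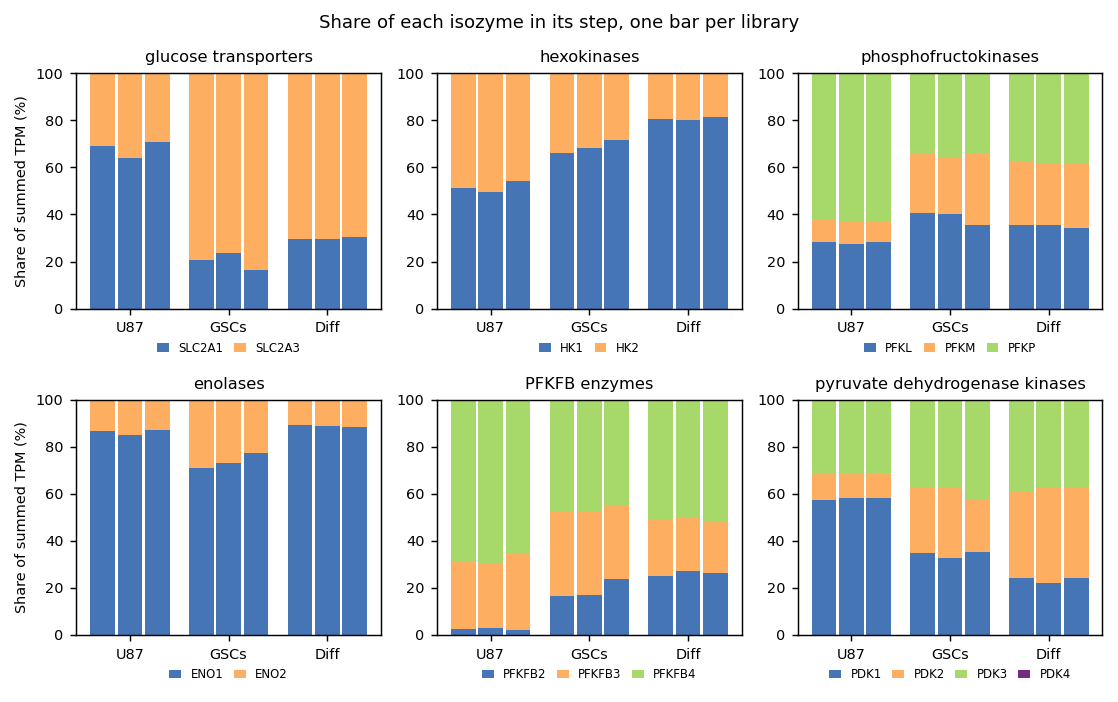
Share of each isozyme in the summed TPM of its step, in percent, with 1 bar for each library, grouped as U87, GSCs and Diff cells. The libraries of a line resemble each other; SLC2A1 is the larger part of the transporters in U87 only, and PDK4 is too small to be seen.

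At the entry to the mitochondrion, 2 of the 3 tested kinases that switch pyruvate dehydrogenase off fell in both lines, while the phosphatases that switch it on rose. Of all tested genes, 13.8% were lower in both lines and 13.8% higher. PDK1 (chr2:172555373-172608669, plus strand) measured 41.6, 41.9 and 38.9 TPM in U87, 13.7, 12 and 13.7 in GSCs and 6.85, 5.91 and 6.73 in Diff cells. The lines stood apart, with changes of -2.48 ± 0.08 in Diff cells (adjusted p = 1.43e-07) and -1.56 ± 0.08 in GSCs (adjusted p = 1.11e-06). PDK3 followed in the same order, at 22.6, 22.1 and 21.2 TPM in U87, 14.5, 13.6 and 16.7 in GSCs and 11.1, 9.93 and 10.5 in Diff cells, with changes of -0.9998 ± 0.09 in Diff cells (adjusted p = 2.8e-05) and -0.53 ± 0.09 in GSCs (adjusted p = 0.000908). PDK2 was higher in both lines, at 8.05, 7.64 and 6.85 TPM in U87, 11.1, 11.2 and 8.49 in GSCs and 10.5, 10.8 and 10.5 in Diff cells, with changes of 0.44 ± 0.11 in Diff cells (adjusted p = 0.0138) and 0.40 ± 0.11 in GSCs (adjusted p = 0.0183). The PDK2 call in GSCs missed the threshold under quantile normalization and in the fit of 2 lines only. It also missed it without GSCs replicate 1, GSCs replicate 2 or U87 replicate 3. The PDK2 call in Diff cells missed it without U87 replicate 3. Of the exon bases of PDK2, 38.5% lie opposite exons on the other strand. PDK4 was under the filter, at up to 0.286 TPM in U87 and listed at 0 in the 3 Diff libraries. The 4 kinases summed to 70.5 ± 2.95 TPM in U87, 38.4 ± 1.33 in GSCs and 27.6 ± 0.902 in Diff cells, and PDK1 made up 57.9 ± 0.473%, 34.2 ± 1.46% and 23.6 ± 1.17% of them.

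PDHA1, the catalytic subunit of pyruvate dehydrogenase that these kinases act on, measured 18.3, 15.1 and 17.2 TPM in U87, 18.4, 18.3 and 18 in GSCs and 23.8, 26.1 and 25 in Diff cells. It was higher in Diff cells by 0.54 ± 0.08 (adjusted p = 0.000594), and in GSCs the value was 0.11 ± 0.08 (adjusted p = 0.273). A pseudogene of PDHA1 is listed at 13.1% to 26.0% of its TPM, and 21.3% of its exon bases lie opposite another gene. PDHB, its partner subunit, measured 9.72, 9.08 and 12.5 TPM in U87, 11.5, 11.4 and 12.8 in GSCs and 12.8, 12.7 and 11.7 in Diff cells and passed in no comparison.

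Beside these genes stood 13 others that act on pyruvate, of which 11 were tested. In Diff cells 6 were higher and 3 lower than U87 (18.9% and 20.5% of all tested genes), and in GSCs 5 were higher and 4 lower (25.3% and 23.3%). The phosphatase gene PDP1 measured 28.4, 28.4 and 24.4 TPM in U87, 99.4, 91.2 and 109 in GSCs and 118, 108 and 107 in Diff cells, a change of 2.00 ± 0.09 in Diff cells (adjusted p = 5.72e-07) and 1.84 ± 0.09 in GSCs (adjusted p = 5.17e-07). PDP2 changed by 0.88 ± 0.12 in Diff cells (adjusted p = 0.000374) and 1.18 ± 0.12 in GSCs (adjusted p = 4.65e-05), and the phosphatase regulator PDPR by 0.38 in Diff cells and 0.56 in GSCs. The complex subunits DLAT and DLD were higher in both lines, DLAT by 0.96 in Diff cells and 0.81 in GSCs (adjusted p = 3.07e-05 and 6.19e-05). Of the mitochondrial pyruvate carriers, MPC1 was higher in Diff cells by 0.58 (adjusted p = 0.00528) and MPC2 lower, with a change of -0.57 (adjusted p = 0.0122). Pyruvate carboxylase (PC) and PCK2, which lead to oxaloacetate and back to phosphoenolpyruvate, were lower in both lines. PC changed by -1.30 in Diff cells and -1.51 in GSCs, and PCK2 by -1.70 in Diff cells and -1.60 in GSCs (adjusted p of 2.02e-05 or less for each).

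**Figure D4:**
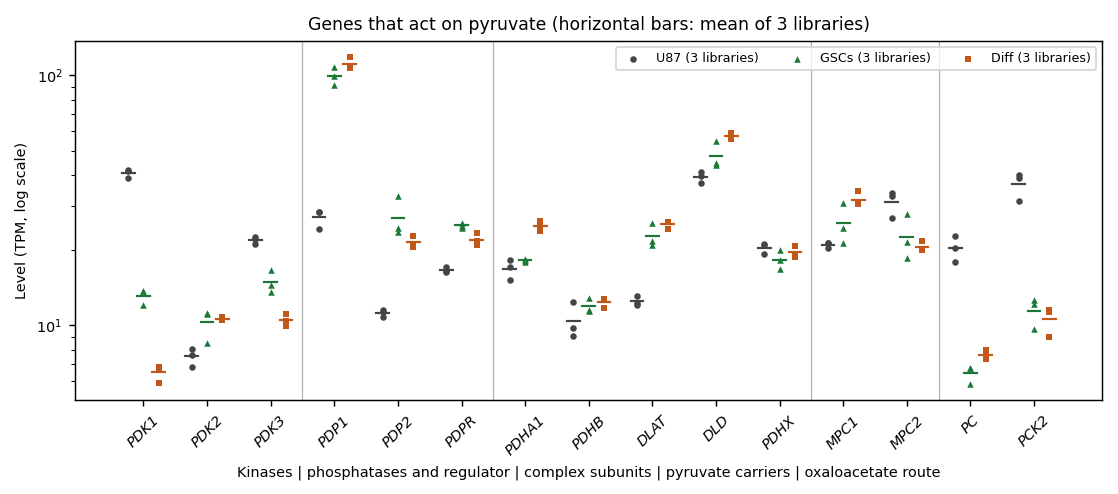
Level in TPM on a log axis of genes that act on pyruvate, with 1 point for each library and a short bar at the mean of 3; circles are U87, triangles GSCs and squares Diff cells. PDK1 is highest in U87 and lowest in Diff cells, and PDP1 lies at 24.4 to 28.4 TPM in U87 and at 91.2 TPM or more in every irradiated library.

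The pentose phosphate genes, which draw glucose phosphate off to make NADPH and ribose, stayed within 2-fold of U87. In Diff cells 1 of 3 was higher (18.9% of all tested genes), and in GSCs 1 was higher and 1 lower (25.3% and 23.3%). PGD, a dehydrogenase of the NADPH-forming branch, stayed at 84.4, 87 and 85.3 TPM in U87, 89, 89.7 and 89.6 in GSCs and 85, 88 and 84.8 in Diff cells, and the interval of its change was -0.09 to 0.10 in Diff cells and -0.03 to 0.16 in GSCs. TKT, the transketolase, was higher in GSCs by 0.46 ± 0.12 (adjusted p = 0.00986). TALDO1, the transaldolase, measured 58.1, 54.1 and 59.6 TPM in U87, 46.3, 51.4 and 50.5 in GSCs and 77.9, 76.6 and 72.9 in Diff cells. It was higher in Diff cells by 0.40 ± 0.06 (adjusted p = 0.000875) and lower in GSCs, with a change of -0.21 ± 0.06 (adjusted p = 0.0195). The latter call missed the threshold in 5 of 19 alternatives, while the difference between both irradiated lines, 0.61 ± 0.06 (adjusted p = 0.000128), passed in each of them.

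All 4 glycogen genes were lower in Diff cells and 3 of them in GSCs (20.5% and 23.3% of all tested genes). GYS1, the muscle type glycogen synthase, measured 172, 178 and 161 TPM in U87, 51.5, 46 and 36.5 in GSCs and 55, 52.7 and 52.8 in Diff cells and changed by -1.65 ± 0.11 in Diff cells (adjusted p = 6.23e-06) and -1.92 ± 0.11 in GSCs (adjusted p = 1.74e-06). GBE1, the branching enzyme, measured 172, 167 and 156 TPM in U87, 83, 87.3 and 92.4 in GSCs and 63.9, 53.8 and 60.3 in Diff cells and changed by -1.46 ± 0.07 in Diff cells (adjusted p = 1.34e-06) and -0.91 ± 0.07 in GSCs (adjusted p = 1.43e-05). PGM1, which links glycogen to glycolysis, changed by -0.88 in Diff cells and -0.70 in GSCs (adjusted p = 3.88e-06 and 9.68e-06). PYGL, the liver type phosphorylase, showed -0.26 in Diff cells (adjusted p = 0.00863) and 0.08 in GSCs (adjusted p = 0.315). In Diff cells 2 of 12 further tested genes of glycogen and gluconeogenesis were lower and 2 higher (20.5% and 18.9% of all tested genes). In GSCs 4 were lower and 3 higher (23.3% and 25.3%). Among them, the brain phosphorylase PYGB changed by -1.80 in Diff cells and -1.06 in GSCs. The phosphorylase kinase subunit PHKA1 changed by 1.75 in Diff cells and 2.15 in GSCs (adjusted p of 5.98e-06 or less for each gene). PHKA1 measured 4.68, 5.47 and 5.28 TPM in U87 and 26.3, 24.8 and 27.6 in GSCs. FBP1, a gluconeogenic enzyme that opposes phosphofructokinase, was listed at 0 in all 9 libraries.

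As a whole, the 17 genes from hexokinase to lactate dehydrogenase took 1.33 ± 0.026% of all TPM in U87 (SD, n = 3), 0.681 ± 0.0759% in GSCs and 0.601 ± 0.0252% in Diff cells. The difference in log2 summed TPM was -1.15 for Diff cells and -0.98 for GSCs. In the 2-sided exact permutation test, each had a p of 0.1 (adjusted 0.136 over 30 tests of sums), the smallest that 3 libraries against 3 allow. The 12 isozyme ratios that could be formed gave 36 such tests, of which 33 had that smallest p (adjusted 0.109). Differences in log2 ratio ranged from -4.55 for SLC16A3 over SLC16A1 in Diff cells to 3.84 for PFKFB2 over PFKFB3 in Diff cells. The ratios PFKM over PFKL and LDHA over LDHB between Diff cells and GSCs, and PFKFB4 over PFKFB3 between Diff cells and U87, overlapped.

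Between the irradiated lines themselves, Diff cells were the lower line for 15 of 36 genes and the higher for 5, where 19.8% of all tested genes were lower and 15% higher. The split was 14 lower and 8 higher under quantile normalization, and also after rescaling without RN7SL1 and mitochondrial transcripts. Over all tested genes it was 3756 lower and 4381 higher of 22909 under quantile normalization, and 4108 and 4169 of 25290 after rescaling. A fall over 2-fold was seen for 5 genes, SLC2A1, SLC2A3, ALDOC, ENO2 and PFKFB3 (5.36% of all tested genes). A rise over 2-fold was seen for none (2.66%). The median was -0.08, beside -0.06 for all tested genes. Of the 21 genes below U87 in both lines, 11 had a lower level still in Diff cells, 2 a higher one, and 8 did not pass. These 8 were SLC16A1, PFKL, PFKP, ALDOA, TPI1, ENO1, LDHA and GYS1, with differences between -0.18 and 0.27.

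GSCs replicate 3 was the lowest of the 3 GSCs libraries for 25 of the 36 genes, or 69.4%, and for 30.9% of all tested genes. Without it, 26 genes were lower and 6 higher than U87 in Diff cells, 23 lower and 6 higher in GSCs, and 17 lower and 6 higher in Diff cells against GSCs. The counts over all tested genes moved as well. Of 22831 genes tested without it, 5259 were lower and 4791 higher in Diff cells than in U87, beside 4685 and 4339 of 22909 with it. In GSCs they were 5740 and 5562, beside 5334 and 5795, and in Diff cells against GSCs 4282 and 3968, beside 4535 and 3447.

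Of 64 further genes of transport, glycolysis, pyruvate, pentose phosphate and glycogen metabolism, 41 passed the filter, and their calls were split between both directions. In Diff cells 9 of the 41 were lower and 13 higher than U87, beside 20.5% and 18.9% of all tested genes, with a median of 0.15. In GSCs 13 were lower and 12 higher, beside 23.3% and 25.3%, with a median of -0.03. Among them the transporters SLC2A6 and SLC37A4 were higher in both lines, SLC37A4 by 1.51 in GSCs (adjusted p = 3.82e-06). ENO3 and LDHD, the muscle enolase and a D-lactate dehydrogenase, were higher in GSCs by 1.02 and 1.38 (adjusted p = 0.00046 and 8.51e-05). BSG, the chaperone of the lactate transporters, changed by -0.31 in Diff cells and -0.65 in GSCs (adjusted p = 0.0296 and 0.000457).

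Hypoxia targets outside glycolysis were mostly lower than U87, as were most of the 36 genes. All 19 tested of 20 were lower in Diff cells (20.5% of all tested genes), with a median of -2.08. In GSCs 16 were lower and 1 higher (23.3% and 25.3%), with a median of -1.01. Between the irradiated lines the lists differed. In Diff cells against GSCs 17 of the 19 targets were lower and 0 higher (19.8% and 15% of all tested genes). Their median was -1.17, beside -0.08 for the 36 genes. CA9, a carbonic anhydrase, measured 430.2, 375 and 445 TPM in U87, 128, 117 and 90.3 in GSCs and 10.03, 13.6 and 13 in Diff cells, while the mRNA of HIF1A itself measured 425, 424 and 466 TPM in U87, 374, 359 and 469.7 in GSCs and 470.4, 434 and 415 in Diff cells and passed in no comparison. EPAS1, which encodes the related subunit HIF-2 alpha, was lower in both lines, with changes of -0.34 in Diff cells and -0.38 in GSCs (adjusted p = 0.00572 and 0.00215). ARNT, the partner subunit of both, was higher by 0.25 in Diff cells and 0.78 in GSCs (adjusted p = 0.00975 and 1.07e-05).

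**Figure D5:**
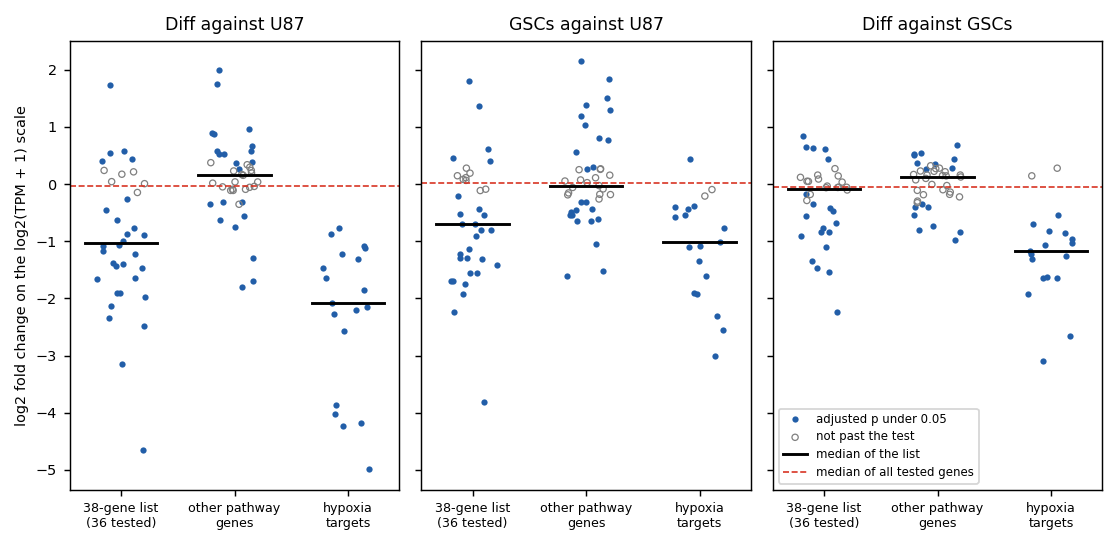
Log2 fold change of each tested gene in 3 lists and 3 comparisons, with filled points for an adjusted p under 0.05, a black line at the median of the list and a dashed line at the median of all tested genes. The median of the 36 genes lies at -1.03 in Diff cells and -0.70 in GSCs against U87, between that of the other pathway genes and that of the hypoxia targets.

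Some of these genes lie among neighbours that moved with them. For each gene, up to 10 tested genes with a mean TPM over 5 were taken on each side. The median changes of these neighbours, 18 for PFKP and 20 for the other genes named here, were -0.88 in Diff cells and -0.89 in GSCs around PFKP, -0.86 and -0.89 around PFKFB3, also on chromosome 10, and -0.75 and -0.59 around HK2. Around SLC2A3 they were -0.10 and 0.69. The neighbours with a lower value than the gene itself numbered 1 in Diff cells and 0 in GSCs for PFKP. They numbered 1 and 14 for PFKFB3 and 1 and 3 for HK2. SLC16A3, ALDOA, LDHA, PGK1, PGAM1, PDK1 and GYS1 were below all 20 of their neighbours in both lines. The neighbours' medians were 0.19 and 0.20 around LDHA. The part of a shared shift of neighbours in these results was not tested.

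The 250 bases before a start of each gene were searched for ACGTG and GCGTG, the core letters bound by hypoxia-inducible factors, on both strands. The start is the one in a table of RefSeq promoters (GRCh38.p14), which can lie inside the outer ends that GENCODE gives a gene. The table held a window for 35 of the 38 genes, and SLC2A3, SLC16A1 and PFKFB2 were not in it. ACGTG is part of the E-box CACGTG, which matches on both strands and counts as 2 overlapping positions in a window of the promoter table. Either motif was found in 12 of the 20 windows of genes lower in both irradiated lines, in 7 of the other 15, and in 53.7% of the windows of all tested genes. ACGTG was in 7 of the 20, in 5 of the other 15 and in 22.1% of the windows of all tested genes. Windows with 3 or more positions were 3 of the 20, 4 of the other 15 and 10.9% of those of all tested genes. For 4 genes the window touches no exon of GENCODE 29, and the 3 of these that fell in both lines are given 5′ to 3′ on the strand of the gene, with the motif in capitals. That of PFKFB3 holds 1 motif position, and those of PFKP and PDK1 hold none.
PFKFB3 (chr10:6144671-6144920, plus strand): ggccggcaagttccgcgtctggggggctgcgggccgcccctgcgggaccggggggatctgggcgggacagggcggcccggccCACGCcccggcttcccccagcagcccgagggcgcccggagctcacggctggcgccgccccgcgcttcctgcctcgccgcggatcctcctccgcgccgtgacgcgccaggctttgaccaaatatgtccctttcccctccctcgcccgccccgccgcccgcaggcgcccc
PFKP (chr10:3067720-3067969, plus strand): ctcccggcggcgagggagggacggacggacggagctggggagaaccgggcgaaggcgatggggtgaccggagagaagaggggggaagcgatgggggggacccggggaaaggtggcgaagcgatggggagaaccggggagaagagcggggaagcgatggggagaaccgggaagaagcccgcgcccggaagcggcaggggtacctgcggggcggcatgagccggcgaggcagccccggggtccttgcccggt
PDK1 (chr2:172555123-172555372, plus strand): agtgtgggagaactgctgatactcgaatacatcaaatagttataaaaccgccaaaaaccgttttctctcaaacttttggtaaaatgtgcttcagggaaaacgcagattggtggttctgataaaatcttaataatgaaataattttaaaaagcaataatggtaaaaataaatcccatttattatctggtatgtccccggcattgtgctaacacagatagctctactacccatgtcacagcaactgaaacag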

How the data were processed

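RNA-seq values of 9 libraries, 3 each of U87, GSCs and Diff cells, were analysed. The authors deposited log2(TPM + 1) for 60606 genes, and the back-transformed values of each library summed to 1000000. The labels describe removal of rRNA and directional paired-end libraries, while the study's methods describe selection of poly(A) RNA on oligo(dT) beads; which was used is unsettled and bears on the share of RN7SL1 and mitochondrial transcripts. The submitters' processing notes list GRCh38, FastQC 0.11.9, Trimmomatic 0.39, HISAT2 2.2.1, featureCounts 2.0.5 and R 4.2.0; the annotation, and whether strand was used in counting, are not given in the sources used here. Depth per library is therefore unknown.

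Genes with a mean TPM over 1 (22909) entered 1 linear model of the 3 lines in limma 3.58.1 (R 4.3.3), moderated by eBayes with a mean trend, with Benjamini-Hochberg adjustment within each comparison. The script was first tested on simulated data. Isozyme ratios and sums were compared with 2-sided exact permutation tests (scipy 1.17.1). Positions, shared exons and neighbours come from GENCODE 29, in which 53594 genes were matched, and promoter windows from RefSeq. The genes named are the members, all isozyme pairs, and from the further lists those called over 2-fold and up to 5 others with the largest change; the pyruvate plot also shows PDHX. The members and lists were chosen with earlier results of these data known. Alternatives covered pseudocounts of 0.1 and 0.5, filters, scalings, the model, and the omission of each library. Other steps ran in Python 3.11.15 (numpy 2.4.6, pandas 2.3.3), and plots were drawn with matplotlib 3.10.9.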

Additional observations from a re-analysis of the deposited data

Results flagged for a closer look

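The change from U87 differed between the irradiated lines, by the direct limma test of Diff cells against GSCs at an adjusted p under 0.05, for 20 genes. By the same test, 19.8% of all tested genes were lower and 15% higher in Diff cells than in GSCs. The difference in log2 fold change, Diff cells minus GSCs, was -2.24 for SLC2A3, -1.55 for ALDOC, -1.46 for SLC2A1, -1.34 for ENO2 and -1.10 for PFKFB3. It was -0.92 for PDK1, -0.84 for SLC16A3, -0.83 for PGK1, -0.76 for HK2 and -0.69 for GAPDH. Smaller differences were -0.56 for GBE1, -0.47 for PDK3, -0.42 for PFKFB4, -0.35 for PYGL and -0.18 for PGM1. Diff cells were the higher line by 0.84 for PKM, 0.65 for GPI, 0.63 for PGAM1, 0.61 for TALDO1 and 0.43 for PDHA1. For SLC2A3 and TALDO1 both lines also passed the test against U87, in opposite directions. The PGM1 difference missed the threshold in 10 of 19 alternatives.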

How the results depend on the processing

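The counts of genes past the test against U87 stayed within 1.5 times under every alternative. Without single libraries they ranged from 25 to 26 lower and 5 to 6 higher in Diff cells, from 21 to 24 lower and 4 to 6 higher in GSCs, and from 14 to 17 lower and 5 to 6 higher in Diff cells against GSCs. The count of genes higher in Diff cells than in GSCs was 8 under quantile normalization and 8 after rescaling without RN7SL1 and mitochondrial genes, beside 5. The former gives HK1, TPI1 and ENO1 as well. Same-numbered libraries of different lines had deviation correlations of -0.0416 to 0.0489, beside -0.0575 to 0.0535 for libraries of different number. These values show no shared shift by number, but cannot tell whether same-numbered libraries were prepared together. With a replicate block, 25 genes were lower and 5 higher in Diff cells, 23 and 5 in GSCs, and 14 and 5 in Diff cells against GSCs, where PGM1 lost its call. Over all 22909 tested genes the block gave 4381 lower and 4053 higher in Diff cells, 5073 and 5546 in GSCs, and 4129 and 3101 in Diff cells against GSCs.

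Of 2049 recomputed fold changes, 25 lost and 19 gained a call. The 21 that changed sign had not passed the test. For Diff cells against GSCs they were, after rescaling and under median-ratio scaling, 0.0257 and 0.0284 for PFKM, 0.00275 and 0.00511 for ALDOA, 0.000461 and 0.00349 for PFKFB2, and 0.0058 and 0.00884 for PGD. Under quantile normalization they were 0.0451 for ALDOA and 0.0798 for LDHB. Without single libraries the range was -0.0397 to 0.195 for PFKP, -0.119 to 0.045 for ALDOA, -0.0269 to 0.0977 for TPI1, -0.158 to 0.0405 for LDHB, -0.118 to 0.0101 for PFKFB2 and -0.0741 to 0.108 for PDK2. It was -0.234 to 0.115 for ENO2 in GSCs against U87 and -0.0107 to 0.0182 for PGD in Diff cells against U87.

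No ratio or sum could pass the exact test, and some with overlapping libraries changed sign. For Diff cells against GSCs, LDHA over LDHB ranged from -0.105 to 0.109 without single libraries and summed phosphofructokinases from -0.173 to 0.0394, with 0.0146 after rescaling, and summed enolases gave 0.0311 under quantile normalization. PFKFB4 over PFKFB3 ranged from -0.136 to 0.0228 in Diff cells against U87. For GSCs against U87, summed glucose transporters ranged from -0.064 to 0.21 and summed aldolases from -0.0815 to 0.0978, with 0.00112 under quantile normalization.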

Other observations

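Of 14 regulators of glucose metabolism, 13 were tested, and 6 were higher and 2 lower than U87 in Diff cells (18.9% and 20.5% of all tested genes) and 6 higher and 3 lower in GSCs (25.3% and 23.3%). PPARGC1A, a coactivator of genes for mitochondrial metabolism, measured 2.08, 2.31 and 1.7 TPM in U87, 6.07, 6.41 and 8.18 in GSCs and 26.7, 22.9 and 24.7 in Diff cells, a rise of 3.09 ± 0.13 in Diff cells (adjusted p = 5.15e-07) and 1.38 ± 0.13 in GSCs (adjusted p = 3.5e-05, limma). TXNIP, an arrestin-like protein that lowers glucose uptake, measured 497, 511 and 470.1 TPM in U87, 1184, 1056 and 1186 in GSCs and 503, 464 and 488 in Diff cells. It rose in GSCs by 1.21 ± 0.06 (adjusted p = 1.1e-06), and Diff cells showed -0.02 ± 0.06 (adjusted p = 0.822). MYC, which is known to raise glycolytic genes, was higher by 0.50 in Diff cells and 0.94 in GSCs (adjusted p = 0.00327 and 5.96e-05). FOXO1 was higher in GSCs by 1.44 (adjusted p = 0.000203).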
